A study of Mus musculus with 12 samples.

Results

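The 8 genes described here encode transcription factors that set up or adjust hepatocyte gene expression: Foxa1, Foxa3, Cebpa, Onecut1, Prox1, Nr1i2, Nr1i3 and Ahr. They were chosen by name and function, with earlier results of these data known. All 8 were found among the 34607 distinct names on the array and among the 20576 genes tested, through 11 probes. RNA was measured in the livers of 12 mice on one-colour Agilent arrays, with 1 array per mouse and 4 separate mice per group. The groups are livers labelled E2F1 knockout, livers labelled E2F2 knockout and wild-type livers from a 129/Sv x C57BL/6 background, and the knockout groups are written below as E2F1-labelled and E2F2-labelled livers. The treatment protocol gives all 3 groups 1 intraperitoneal dose of the liver carcinogen diethylnitrosamine (25 mg/kg, postnatal day 14), then a diet with 60% of its calories from fat for 32 weeks, and death at 9 months of age after a 4-hour fast. A label field of the E2F1 samples names vehicle and chow instead, against their titles, descriptions, characteristics and the protocol, so every comparison with that group carries this conflict. The strain is named for wild type only, and the sources used here do not give sex, time of death or which part of each gene was deleted.

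Hepatocyte identity rests on a network of factors that bind each other's regulatory regions. FOXA proteins open chromatin at liver enhancers, C/EBP alpha drives metabolic genes and restrains division, and HNF6 (the product of Onecut1) and PROX1 act in liver development and in adult metabolism. The sensors of foreign compounds are the nuclear receptors PXR (Nr1i2) and CAR (Nr1i3), which pair with RXR, together with the aryl hydrocarbon receptor (Ahr), which pairs with ARNT. They turn on cytochromes P450, transferases and transporters. E2F1 and E2F2 themselves bind promoters of cell cycle genes.

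Each gene is read by probes of 60 bases, and the probes that carry the results are given first, 5′ to 3′ as designed on the array, since Nr1i3, Onecut1 and Ahr have 2 probes each that can be set beside each other. On mm9, the Nr1i3 probes lie at chr1:173148765-173148824 and chr1:173147776-173147835 (plus strand), the Onecut1 probes at chr9:74737402-74737461 and chr9:74710921-74710980 (plus strand), the Ahr probes at chr12:36182724-36182783 and chr12:36188523-36188582 (minus strand), the Nr1i2 probe at chr16:38248745-38248804 (minus strand) and the Prox1 probe at chr1:191945785-191945844 (minus strand). Exon annotation of this build was not used here. The brighter Onecut1 probe carries the gene's symbol in the array design through an Ensembl transcript, and the other probes carry RefSeq transcripts.
Nr1i3, brighter probe: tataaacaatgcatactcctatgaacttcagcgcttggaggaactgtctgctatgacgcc
Nr1i3, dimmer probe: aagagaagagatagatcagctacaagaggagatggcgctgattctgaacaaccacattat
Nr1i2: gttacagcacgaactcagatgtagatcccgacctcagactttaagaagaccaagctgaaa
Onecut1, brighter probe: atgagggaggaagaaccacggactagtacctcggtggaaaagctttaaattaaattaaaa
Onecut1, dimmer probe: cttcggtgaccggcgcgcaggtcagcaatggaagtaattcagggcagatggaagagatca
Ahr, brighter probe: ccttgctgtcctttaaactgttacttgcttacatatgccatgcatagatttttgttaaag
Ahr, dimmer probe: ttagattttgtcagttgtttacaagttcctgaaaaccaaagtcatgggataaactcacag
Prox1: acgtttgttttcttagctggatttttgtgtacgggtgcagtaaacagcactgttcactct

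The start regions of Nr1i2 and Nr1i3, the pair of receptor genes that were higher together, are shown because they differ in composition from those of the other members. RefSeq windows on GRCm38.p6, from 250 bases before to 50 bases after the transcription start, were at hand for 7 of the 8 genes, in 8 windows. Capitals mark matches to the FOXA letters on either strand, meaning TGTTTAC or the variant TGTTTGC, and also TATTTAC or the variant TATTTGC.
Nr1i2, chr16:38294775-38295074 (minus strand): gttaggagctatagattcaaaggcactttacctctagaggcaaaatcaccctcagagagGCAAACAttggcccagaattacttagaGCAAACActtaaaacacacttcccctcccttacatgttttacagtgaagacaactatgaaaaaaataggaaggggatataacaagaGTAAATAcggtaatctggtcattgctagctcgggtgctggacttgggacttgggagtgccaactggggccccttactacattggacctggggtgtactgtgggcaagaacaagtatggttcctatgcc
Nr1i3, chr1:171213720-171214019 (plus strand): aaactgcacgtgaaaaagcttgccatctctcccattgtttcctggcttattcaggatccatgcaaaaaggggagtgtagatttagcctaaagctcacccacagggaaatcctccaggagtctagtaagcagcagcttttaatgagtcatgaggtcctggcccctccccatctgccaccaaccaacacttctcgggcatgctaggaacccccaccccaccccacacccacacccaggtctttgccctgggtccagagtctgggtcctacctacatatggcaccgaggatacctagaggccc
The Nr1i2 window held 3 FOXA matches, beginning 191, 164 and 78 bases before the start, and 2 CG dinucleotides at a GC content of 45.3%. The Nr1i3 window held no FOXA match and 3 CG dinucleotides at 54% GC. The other members' windows were richer in CG, from 14 and 25 in the 2 windows of Prox1 to 38 in that of Onecut1, against a median of 7 over 32851 windows. FOXA letters were found in the windows of Foxa1, Prox1 and Nr1i2 and in 13.5% of all windows. The E2F letters on both strands, meaning TTTGGCGC or the variants TTTCGCGC and TTTCCCGC and also TTTGCCGC, were in none of the 8 windows and in 2.26% of all windows. These matches describe letters only.

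Levels are given as the log2 of the signal over the array's own 75th percentile, so that a level of 3 is above that percentile and a level below 0 is under it. Array 75th percentiles ran from 118.9 to 236.3 intensity units, and 44.8% to 54.5% of probes were well above background. None of the members' probes was saturated. The labels were first checked with the targeted genes. E2f1 averaged -0.75 ± 0.10 in E2F1-labelled livers and 0.07 ± 0.31 in wild-type livers (SD, n = 4 each), a log2 change of -0.82 ± 0.19 (SE; limma adjusted p = 0.0108), and remained well above background on all 4 E2F1-labelled arrays. E2f2 averaged 0.55 ± 0.25 in E2F2-labelled livers and 0.81 ± 0.26 in wild-type livers, a log2 change of -0.26 ± 0.21 that did not pass (limma adjusted p = 0.396), whereas in E2F1-labelled livers its log2 change was -1.50 ± 0.21 (limma adjusted p = 0.00136). These probes check the labels only if they lie inside the deleted stretch, which is not known here. Of the tissue markers, Alb averaged 11.39, 10.94 and 11.30 in E2F1-labelled, E2F2-labelled and wild-type livers, and Ttr 9.50, 9.31 and 8.85, with no call. All 3 groups were on every slide, a group always in the same position, and so a position effect and a group effect cannot be told apart. In whole liver RNA, fewer cells of a type and less RNA per cell cannot be told apart either.

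Against wild-type livers, 3 of the 8 genes were called in E2F1-labelled livers, with Nr1i2 and Nr1i3 higher and Onecut1 lower, and all 3 showed no overlap with wild-type livers. Over all tested genes 20.6% were called in that comparison (13.2% higher, 7.43% lower) and 21.3% had groups that did not overlap. In E2F2-labelled livers 2 of 8 were called, Foxa3 and Prox1, both higher, against 22% of all genes (14.4% higher, 7.59% lower). The E2F2-labelled and wild-type values did not overlap for 1 member, Prox1, against 23.8% of all genes. Between the labelled groups, E2F2 minus E2F1, none of 8 was called against 1.62% of all genes (0.904% higher, 0.719% lower), while Nr1i2 and Nr1i3 did not overlap (9.03% of all genes did not). At an unadjusted p under 0.05 in the same limma fit, 3 of the 8 passed between the labelled groups (Onecut1, Prox1 and Nr1i2) against 11.5% of all genes, while 5 passed in E2F1-labelled and 3 in E2F2-labelled livers against wild type, where 33.7% and 36.2% of all genes did. The members' median change was 0.45, 0.55 and 0.16 in these comparisons, where all genes had a median of 0.13, 0.18 and 0.03. With quantile normalization the medians of all genes were 0.03, 0.07 and 0.02, and the share of called genes that were higher fell to 50.4% in E2F1-labelled and 49.5% in E2F2-labelled livers, against 64% and 65.5% with the 75th percentile. The comparisons with wild type share the same 4 control livers.

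**Figure D1:**
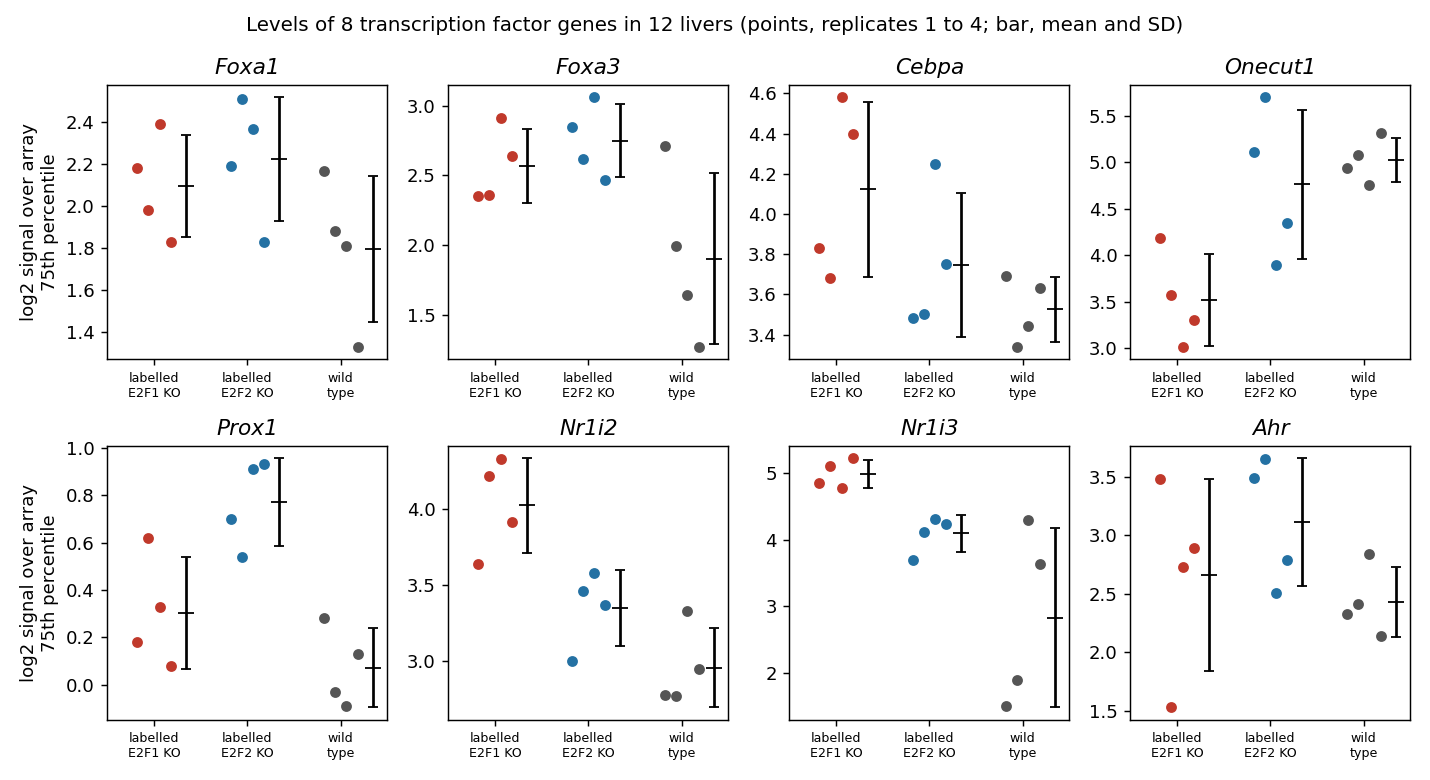
Level of each of the 8 genes (brightest probe, log2 signal over the array's 75th percentile, own axis per panel) in E2F1-labelled, E2F2-labelled and wild-type livers. Points are replicates 1 to 4 from left to right, and the bar is the mean and SD; E2F1-labelled livers lie above all wild-type livers for Nr1i2 and Nr1i3 and below all of them for Onecut1.

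**Figure D2:**
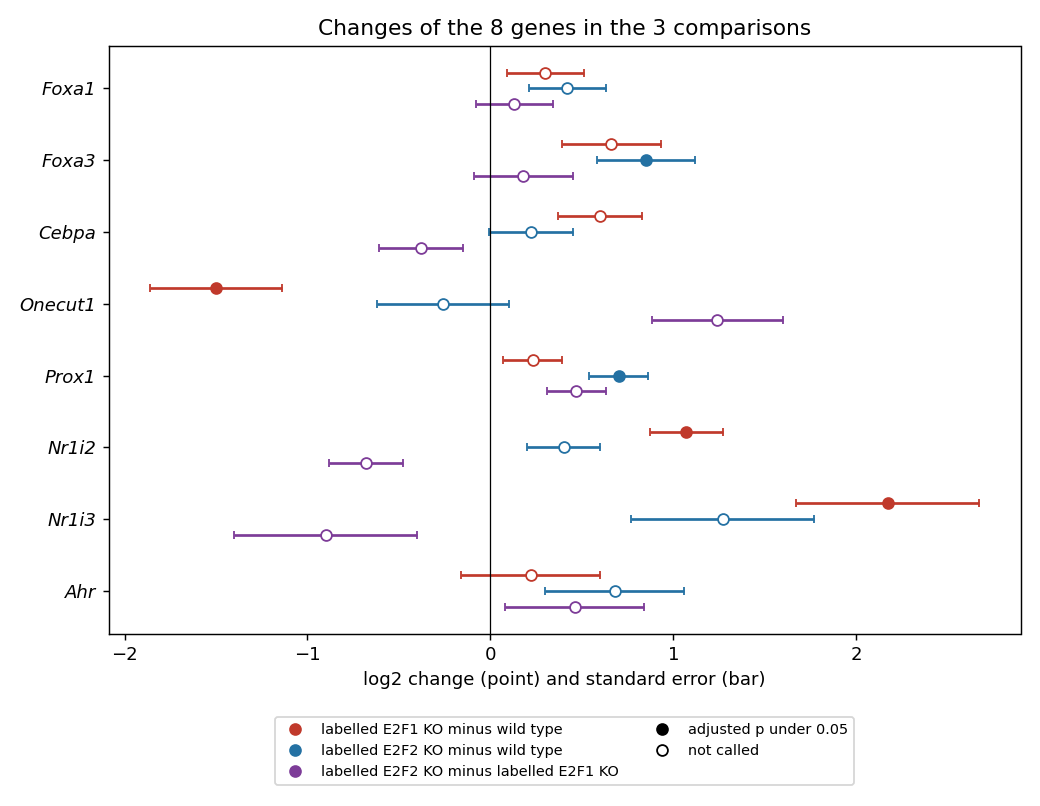
Log2 change (point) and its standard error (bar) of the 8 genes in E2F1-labelled minus wild-type, E2F2-labelled minus wild-type and E2F2-labelled minus E2F1-labelled livers. Filled points have a limma adjusted p under 0.05: Nr1i2, Nr1i3 and Onecut1 in the first comparison and Foxa3 and Prox1 in the second.

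Nr1i3, which encodes CAR, the receptor behind the response to phenobarbital-like compounds, had the largest change of the 8 genes against wild type. Its brighter probe stood at 4.86, 5.11, 4.78 and 5.23 in E2F1-labelled livers, at 3.70, 4.12, 4.32 and 4.24 in E2F2-labelled livers and at 1.49, 1.89, 4.30 and 3.63 in wild-type livers. All E2F1-labelled livers exceeded all others, while the wild-type livers split into replicates 1 and 2, far below the rest, and replicates 3 and 4, within or near the E2F2-labelled range. The log2 change in E2F1-labelled livers was 2.17 ± 0.50 (4.50-fold, limma adjusted p = 0.0116), and within the 4 slides it was 3.37, 3.23, 0.48 and 1.60. In E2F2-labelled livers the log2 change was 1.27 ± 0.50 and was not called (limma adjusted p = 0.0901). When each array was left out in turn it ran from 0.821 to 1.758, the latter without wild-type replicate 3. The limma adjusted p then ran from 0.00917 to 0.236. The dimmer probe gave 3.51, 3.62, 3.32 and 3.58 in E2F1-labelled livers, 2.60, 2.89, 2.87 and 2.55 in E2F2-labelled livers and 0.87, 1.46, 2.74 and 2.51 in wild-type livers. It showed the same split of the wild-type livers, and its log2 changes against wild type were 1.61 ± 0.34 in E2F1-labelled (limma adjusted p over all probes = 0.00748) and 0.83 ± 0.34 in E2F2-labelled livers (0.0976). E2F2-labelled minus E2F1-labelled livers gave -0.90 ± 0.50 for the brighter probe (limma adjusted p = 0.562, and 0.0416 when only these groups entered the fit).

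The wild-type livers with low Nr1i3 also had high tumour marker signal. The summed level of 14 liver tumour and oncofetal markers, among them Afp, was 10.5 to 39.7 times the array's 75th percentile in E2F1-labelled livers, 22.5 to 42.5 in E2F2-labelled livers, and 603, 519, 71.3 and 348 in wild-type replicates 1 to 4. Of these 14 genes, 13 were called lower in each labelled group, against 7.43% of all genes in E2F1-labelled and 7.59% in E2F2-labelled livers. The list was chosen with earlier results of these data known, so its sums and counts are description and not independent support. The summed level of 11 cholangiocyte markers was 20.8 to 30.9 in E2F1-labelled livers, 22.2 to 39.9 in E2F2-labelled livers and 63.8, 64.4, 26 and 31.3 in wild-type livers. Of these 11 markers, 3 were called lower in each labelled group, against the same shares of all genes. Hepatocyte markers gave sums over 28 genes of 22600 to 30300 in E2F1-labelled and 22400 to 30000 in E2F2-labelled livers, and of 19100, 25000, 22300 and 26900 in wild-type replicates 1 to 4. Of these 28 genes, 10 were called higher in E2F1-labelled and 7 in E2F2-labelled livers, against 13.2% and 14.4% of all genes, and none was called lower. The part of the tumour and cholangiocyte signal in the Nr1i3 result was not tested.

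Nr1i2, which encodes PXR, the receptor for steroids, bile acids and many drugs, differed less in size but with less spread. It stood at 3.64, 4.22, 4.33 and 3.92 in E2F1-labelled livers, at 3.00, 3.46, 3.58 and 3.37 in E2F2-labelled livers and at 2.78, 2.77, 3.33 and 2.95 in wild-type livers. Every E2F1-labelled liver was above every other liver, and the E2F2-labelled values overlapped those of wild type. Nr1i2 rose by a log2 change of 1.07 ± 0.20 in E2F1-labelled livers (2.10-fold, limma adjusted p = 0.00439), with 0.86, 1.45, 1.00 and 0.97 within the slides. In E2F2-labelled livers the log2 change was 0.40 ± 0.20 (limma adjusted p = 0.171); with the slide as a replicate block it was 0.40 ± 0.13 and passed (limma adjusted p = 0.0438). E2F2-labelled minus E2F1-labelled livers gave -0.68 ± 0.20 (limma adjusted p = 0.148), which passed only with the replicate block (-0.68 ± 0.13, limma adjusted p = 0.0352).

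Onecut1, which encodes HNF6, a cut-homeodomain factor of hepatocyte and bile duct development, was lower in E2F1-labelled livers. The brighter probe stood at 4.19, 3.57, 3.02 and 3.31 in E2F1-labelled livers, at 5.11, 5.70, 3.90 and 4.35 in E2F2-labelled livers and at 4.94, 5.08, 4.76 and 5.32 in wild-type livers. The E2F1-labelled livers lay below all wild-type livers, and the E2F2-labelled livers spanned both ranges, with replicates 3 and 4 below wild type and replicates 1 and 2 above its middle. The log2 change was -1.50 ± 0.36 in E2F1-labelled livers (2.83-fold lower, limma adjusted p = 0.0129), with -0.75, -1.50, -1.74 and -2.01 within the slides. In E2F2-labelled livers it was -0.26 ± 0.36 (limma adjusted p = 0.635). The dimmer probe read -1.50, -3.38, -2.51 and -1.70 in E2F1-labelled livers, -0.60, 0.02, -2.03 and -1.47 in E2F2-labelled livers and -0.81, -0.35, -1.18 and 0.13 in wild-type livers. It was not well above background in E2F1-labelled replicate 2, and its log2 changes against wild type were -1.72 ± 0.49 in E2F1-labelled (limma adjusted p over all probes = 0.0295) and -0.47 ± 0.49 in E2F2-labelled livers (0.527). E2F2-labelled minus E2F1-labelled livers gave 1.24 ± 0.36 for the brighter probe, which did not pass (limma adjusted p = 0.136).

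**Figure D3:**
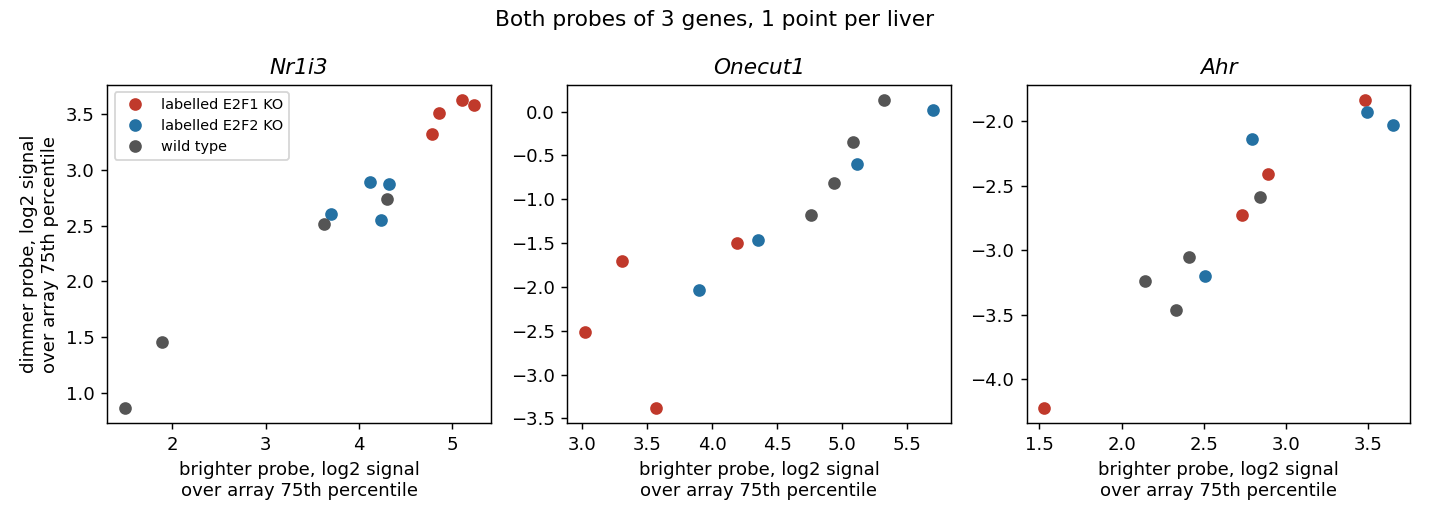
Level of the dimmer probe against that of the brighter probe (both log2 signal over the array's 75th percentile) for Nr1i3, Onecut1 and Ahr, 1 point per liver in E2F1-labelled, E2F2-labelled and wild-type livers. Wild-type replicates 1 and 2 are the lowest points of Nr1i3 by both probes, and E2F1-labelled replicate 2 is the lowest point of Onecut1 by the dimmer probe and of Ahr by both probes.

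Prox1, a homeodomain factor of hepatocyte and lymphatic endothelial fate, was higher in E2F2-labelled livers. It stood at 0.18, 0.62, 0.33 and 0.08 in E2F1-labelled livers, at 0.70, 0.54, 0.91 and 0.93 in E2F2-labelled livers and at 0.28, -0.03, -0.09 and 0.13 in wild-type livers. The E2F2-labelled livers lay above all wild-type livers, and the E2F1-labelled livers overlapped both groups. The log2 change was 0.70 ± 0.16 in E2F2-labelled livers (1.62-fold, limma adjusted p = 0.0105), with 0.42, 0.57, 1.00 and 0.79 within the slides, and 0.23 ± 0.16 in E2F1-labelled livers (limma adjusted p = 0.35). Lymphatic endothelium also makes PROX1. The summed level of 15 markers of lymphatic and sinusoidal endothelium was 64.8 to 90 in E2F1-labelled, 79.5 to 93.3 in E2F2-labelled and 76.2 to 97.7 in wild-type livers. None of the 15 was called higher. In E2F1-labelled livers 2 were called lower and in E2F2-labelled livers 3, Lyve1 among them at -2.91 and -2.80. Over all genes 7.43% and 7.59% were called lower. Flt4, the lymphatic VEGF receptor gene, was not called in either (-0.48 ± 0.22, limma adjusted p = 0.144, and -0.25 ± 0.22, limma adjusted p = 0.449). In wild-type livers Flt4 averaged -2.66, and Kdr, the brightest of the 15, averaged 4.88. Flt4 thus added little to the summed level, which is not a measure of lymphatic cells alone. The part of lymphatic or sinusoidal endothelium in the Prox1 result was not tested.

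Foxa3, a FOXA gene expressed in liver and gut, stood at 2.35, 2.36, 2.91 and 2.64 in E2F1-labelled livers, at 2.85, 2.62, 3.06 and 2.47 in E2F2-labelled livers and at 2.71, 1.99, 1.64 and 1.27 in wild-type livers. Wild-type replicate 1 was within the range of both labelled groups and the other 3 wild-type livers were below both ranges. The log2 change was 0.85 ± 0.27 in E2F2-labelled livers (1.80-fold, limma adjusted p = 0.0442), with 0.14, 0.63, 1.41 and 1.21 within the slides, and this call held in 8 of 24 alternative settings, with an adjusted p between 0.0087 and 0.115. In E2F1-labelled livers it was 0.66 ± 0.27 (limma adjusted p = 0.107). When each array was left out in turn it ran from 0.453 to 0.935, the latter without wild-type replicate 1. The limma adjusted p then ran from 0.019 to 0.254. Foxa1, a pioneer factor that acts with FOXA2 in the onset of liver development, stood at 2.18, 1.98, 2.39 and 1.83 in E2F1-labelled livers, at 2.19, 2.51, 2.37 and 1.83 in E2F2-labelled livers and at 2.17, 1.88, 1.81 and 1.33 in wild-type livers. The 3 groups overlapped, and neither log2 change passed (0.30 ± 0.21, limma adjusted p = 0.36, and 0.42 ± 0.21, limma adjusted p = 0.168). The third FOXA gene, Foxa2, a member of another list, was not called either (0.27 ± 0.25 in E2F1-labelled and 0.05 ± 0.25 in E2F2-labelled livers).

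Cebpa, which encodes C/EBP alpha, stood at 3.83, 3.68, 4.58 and 4.40 in E2F1-labelled livers, at 3.48, 3.50, 4.25 and 3.75 in E2F2-labelled livers and at 3.69, 3.34, 3.44 and 3.63 in wild-type livers. E2F1-labelled replicates 3 and 4 and E2F2-labelled replicate 3 were the highest, and the groups overlapped. The log2 change in E2F1-labelled livers was 0.60 ± 0.23 (limma adjusted p = 0.0901) and passed only with the slide as a replicate block (0.60 ± 0.18, limma adjusted p = 0.0417). In E2F2-labelled livers it was 0.22 ± 0.23 (limma adjusted p = 0.53). Adipocytes also express Cebpa, and the summed level of 5 adipocyte markers was 56.6 in E2F1-labelled replicate 1 against 3.75 to 6.52 in the other E2F1-labelled livers, 3.19 to 4.43 in E2F2-labelled and 18.9 to 37.1 in wild-type livers. Of these 5 markers, 1 was called lower in E2F1-labelled and 3 in E2F2-labelled livers, against 7.43% and 7.59% of all genes. The listed markers Adipoq, Lep, Plin1 and Retn were on the array but were not tested, so the sum does not include them. The part of adipocytes in the Cebpa values was not tested.

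Ahr, the receptor for dioxin-like compounds, varied within the labelled groups. Its brighter probe stood at 3.48, 1.53, 2.73 and 2.89 in E2F1-labelled livers, at 3.49, 3.65, 2.51 and 2.79 in E2F2-labelled livers and at 2.33, 2.41, 2.84 and 2.14 in wild-type livers. E2F1-labelled replicate 2 was the lowest of the 12 livers and E2F1-labelled replicate 1 was among the highest. Neither log2 change against wild type passed (0.22 ± 0.38, limma adjusted p = 0.734, and 0.68 ± 0.38, limma adjusted p = 0.214). The dimmer probe read -1.84, -4.22, -2.73 and -2.41 in E2F1-labelled livers, -1.93, -2.03, -3.20 and -2.14 in E2F2-labelled livers and -3.46, -3.05, -2.59 and -3.24 in wild-type livers, and was not well above background in E2F1-labelled replicate 2. Its log2 changes were 0.28 ± 0.44 and 0.76 ± 0.44.

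Genes known as targets of PXR or CAR were split. Of 36 listed genes, 31 were on the array under these names and 29 were tested. In E2F1-labelled livers 14 rose and 5 fell, with a median log2 change of 0.84 (0.13 over all genes, of which 13.2% rose and 7.43% fell); in E2F2-labelled livers 7 rose and 6 fell, with a median of -0.01 (0.18 over all genes, of which 14.4% rose and 7.59% fell). Between the labelled groups, E2F2 minus E2F1, none rose and 2 fell, Cyp2b10 and Abcc3 (over all genes 0.904% rose and 0.719% fell). The summed level of the 29 genes was 1540, 1380, 1990 and 1560 in E2F1-labelled livers, 826, 1090, 1260 and 1190 in E2F2-labelled livers and 426, 376, 985 and 854 in wild-type livers. Replicates 1 and 2 of wild type, the livers lowest in Nr1i3, were also the lowest in this sum.

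The members that rose included 5 Cyp2c genes and Por, the electron donor of cytochromes P450, in E2F1-labelled livers. Cyp2c50, a cytochrome P450 gene, stood at 6.91, 6.85, 7.74 and 6.85 in E2F1-labelled livers, 6.32, 6.49, 6.85 and 6.65 in E2F2-labelled livers and 2.57, 3.43, 6.05 and 5.59 in wild-type livers. Its log2 changes were 2.68 ± 0.62 in E2F1-labelled (limma adjusted p = 0.0119) and 2.17 ± 0.62 in E2F2-labelled livers (0.0279). Cyp2c37 rose by 2.17 ± 0.66 (limma adjusted p = 0.0356) in E2F1-labelled and by 2.68 ± 0.66 (0.0139) in E2F2-labelled livers. The wild-type livers were again lowest in replicates 1 and 2 for both genes.

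The 5 genes that fell in E2F1-labelled livers were Cyp2b13, Cyp2b9, Cyp2b10, Sult2a1 and Abcb1a, and in E2F2-labelled livers Abcc3 fell besides these. Cyp2b10, the gene most used as a readout of CAR in mouse liver, stood at 1.71, 1.71, 1.26 and 3.02 in E2F1-labelled livers, at -1.60, -0.20, -1.16 and 0.01 in E2F2-labelled livers and at 4.28, 3.81, 2.32 and 4.77 in wild-type livers. It fell by 1.87 ± 0.54 on the log2 scale in E2F1-labelled (limma adjusted p = 0.0298) and by 4.53 ± 0.54 in E2F2-labelled livers (0.000349), and E2F2-labelled minus E2F1-labelled livers gave -2.67 ± 0.54 (0.0268). Cyp2b13 and Cyp2b9, which are known as female-biased genes of mouse liver, fell as well. Cyp2b9 fell by 2.64 ± 0.58 in E2F1-labelled livers, with 3 of 4 arrays well above background (limma adjusted p = 0.0094). In E2F2-labelled livers it was called lower (limma adjusted p = 0.00157) but was well above background on 1 of 4 arrays, so the size of that fall is not given. Cyp2b13 fell by 4.74 ± 0.60 in E2F1-labelled livers, with 3 of 4 arrays well above background, and was at least 53.6-fold lower in E2F2-labelled livers, where none of 4 arrays was well above background (limma adjusted p = 0.000106). Sult2a1, a sulfotransferase gene that is also female-biased, stood at -0.89, -2.48, -4.25 and 1.39 in wild-type livers. Wild-type replicate 3 was within the E2F1-labelled range of -5.59 to -3.71. By group mean, Sult2a1 was at least 4.69-fold lower in E2F1-labelled (limma adjusted p = 0.0328) and at least 5.2-fold lower in E2F2-labelled livers (0.0136), measured well above background on 3 of 4 wild-type arrays only. These bounds set the wild-type mean against, on each array, the higher of the probe's own signal and the dimmest probe that was well above background there. Abcb1a, which encodes a P-glycoprotein efflux pump, fell by 2.29 ± 0.34 in E2F1-labelled (limma adjusted p = 0.00168) and by 2.5 ± 0.34 in E2F2-labelled livers (0.000758), with 3 and 2 of 4 arrays well above background. Cyp3a11, the usual readout of PXR, was not called (1.73 ± 0.72, limma adjusted p = 0.113, in E2F1-labelled and -1.10 ± 0.72, limma adjusted p = 0.296, in E2F2-labelled livers), and its values in E2F1-labelled livers lay above those of all E2F2-labelled livers. It was named after its values were seen, as were Abcb1a, Abcc3, Cyp3a44, Cyp2c55, Por, Foxa2, Flt4, Kdr, Cfd, Slc2a4, Hnf4a, Atf5 and Arnt. Cross-hybridisation between close Cyp2b or Cyp2c relatives was not examined.

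**Figure D4:**
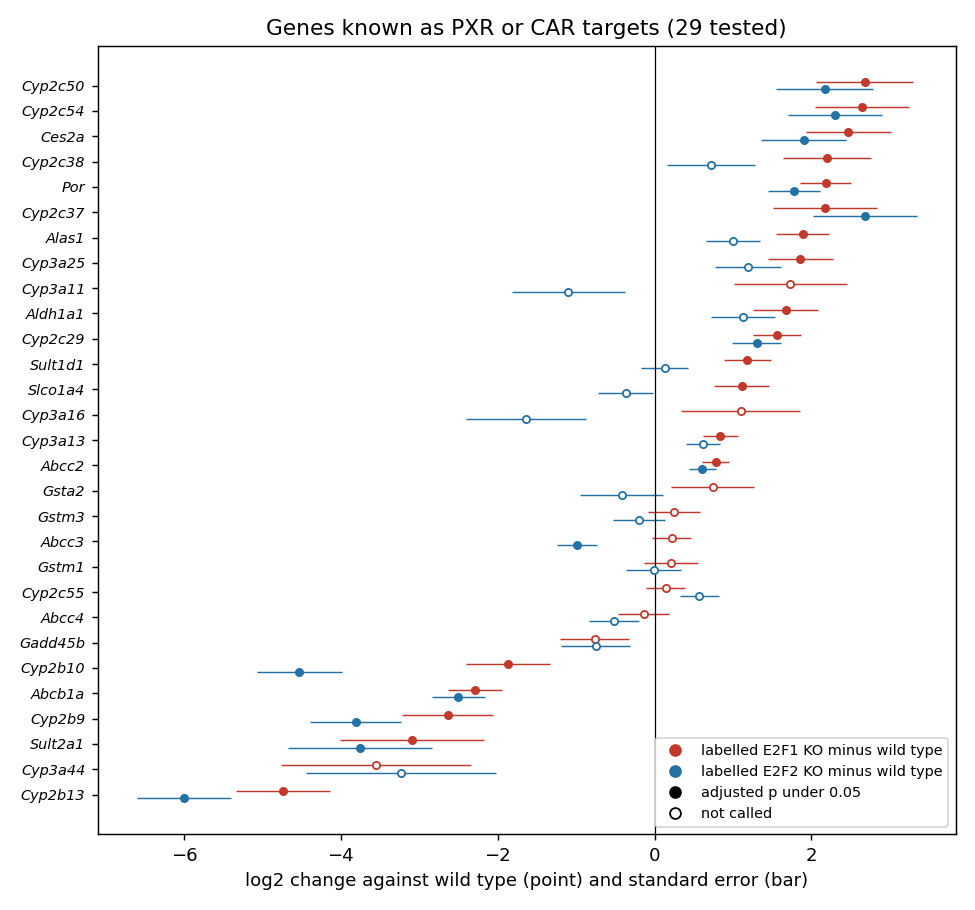
Log2 change (point) and standard error (bar) of the 29 tested PXR or CAR target genes in E2F1-labelled and in E2F2-labelled minus wild-type livers, in order of the E2F1-labelled change; filled points have a limma adjusted p under 0.05. Cyp2c50 has the highest E2F1-labelled value at 2.68 and Cyp2b13 the lowest at -4.74; values of Cyp2b13, Cyp2b9, Sult2a1, Abcb1a, Cyp3a44 and Cyp2c55 rest partly on arrays not well above background.

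Of 16 listed targets of the aryl hydrocarbon receptor 13 were tested, and Cyp1a1, Ahrr and Il22 were not, being too dim. In E2F1-labelled livers 2 rose and 1 fell (median 0.26), where 20.6% of all genes were called, and in E2F2-labelled livers 3 rose and 1 fell (median 0.12), where 22% were called. Cyp1a2, a hepatocyte cytochrome, stood at 3.88, 3.94, 4.15 and 3.84 in E2F1-labelled livers, at 3.1, 3.36, 4.05 and 3.53 in E2F2-labelled livers and at 0.21, 0.62, 3.68 and 2.25 in wild-type livers, with log2 changes of 2.26 ± 0.59 (limma adjusted p = 0.0191) and 1.82 ± 0.59 (0.0445). Its low wild-type livers were replicates 1 and 2, those with low Nr1i3. Lonrf1 rose by 0.74 ± 0.20 and 0.75 ± 0.20. Ugdh, the UDP-glucose dehydrogenase gene, had log2 changes of 0.82 ± 0.28 (limma adjusted p = 0.054) and 1.11 ± 0.28 (0.0148). Asap2 fell by 1.82 ± 0.41 in E2F1-labelled and by 1.29 ± 0.41 in E2F2-labelled livers.

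Of 20 tested partners and coregulators, 3 rose in E2F1-labelled and 5 in E2F2-labelled livers and none fell, with medians of 0.22 and 0.24. Over all genes 20.6% and 22% were called, with medians of 0.13 and 0.18, and these counts lay near that background. Med1, a Mediator subunit that binds nuclear receptors, stood at 6.30, 7.48, 7.10 and 5.01 in E2F1-labelled livers, at 4.52, 5.30, 5.31 and 5.44 in E2F2-labelled livers and at 3.27, 3.90, 4.79 and 3.83 in wild-type livers. It rose by 2.52 ± 0.48 in E2F1-labelled livers (limma adjusted p = 0.00484) and had a log2 change of 1.20 ± 0.48 in E2F2-labelled livers (limma adjusted p = 0.0931). Ppargc1b, which encodes the coactivator PGC-1 beta, rose by 2.18 ± 0.32 (limma adjusted p = 0.00161) and 1.19 ± 0.32 (0.0211). Rxra, the partner of PXR and CAR, had log2 changes of 0.53 ± 0.19 (limma adjusted p = 0.0698) and 0.85 ± 0.19 (0.00913). Hdac3, a histone deacetylase gene, and Ptges3, a chaperone gene, were called in E2F2-labelled livers, at 0.57 ± 0.15 (limma adjusted p = 0.0173) and 0.56 ± 0.16 (0.0275). Arnt, the partner of the aryl hydrocarbon receptor, was not called (-0.11 ± 0.15 and -0.14 ± 0.15).

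Among 29 other liver transcription factors, 10 rose and 1 fell in E2F1-labelled livers (median 0.46), and 15 rose and 1 fell in E2F2-labelled livers (median 0.52), while 13.2% and 14.4% of all genes rose. Klf15, a metabolic zinc finger factor gene, rose by 1.48 ± 0.20 (limma adjusted p = 0.0013) and 1.12 ± 0.20 (0.00376). Ppara, the fatty acid sensor gene, rose by 1.26 ± 0.27 (limma adjusted p = 0.00867) and 0.91 ± 0.27 (0.0337), and Cebpb by 1.25 ± 0.25 and 1.17 ± 0.25. Onecut2, the close relative of Onecut1, stood at 5.01, 5.20, 5.31 and 5.06 in E2F1-labelled livers, at 5.42, 5.49, 5.44 and 5.55 in E2F2-labelled livers and at 2.39, 3.46, 5.22 and 4.58 in wild-type livers. It was not called in E2F1-labelled livers (1.23 ± 0.45, limma adjusted p = 0.0741), the group in which Onecut1 fell, and rose in E2F2-labelled livers (1.56 ± 0.45, limma adjusted p = 0.0292). Tbx3, a T-box factor gene, had a log2 change of 0.80 ± 0.52 in E2F1-labelled livers (limma adjusted p = 0.313) and of 1.64 ± 0.52 in E2F2-labelled livers (limma adjusted p = 0.0418), and the difference between these groups did not pass (0.83 ± 0.52, limma adjusted p = 0.63). Hnf4a, which binds many hepatocyte promoters, rose by 0.68 ± 0.14 and 0.78 ± 0.14. The 1 gene that fell in both comparisons was Atf5 (-0.58 ± 0.15 and -0.45 ± 0.15). With quantile normalization, median centring or the series matrix values 9 factors were called in E2F2-labelled livers, against 16 with the 75th percentile.

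**Figure D5:**
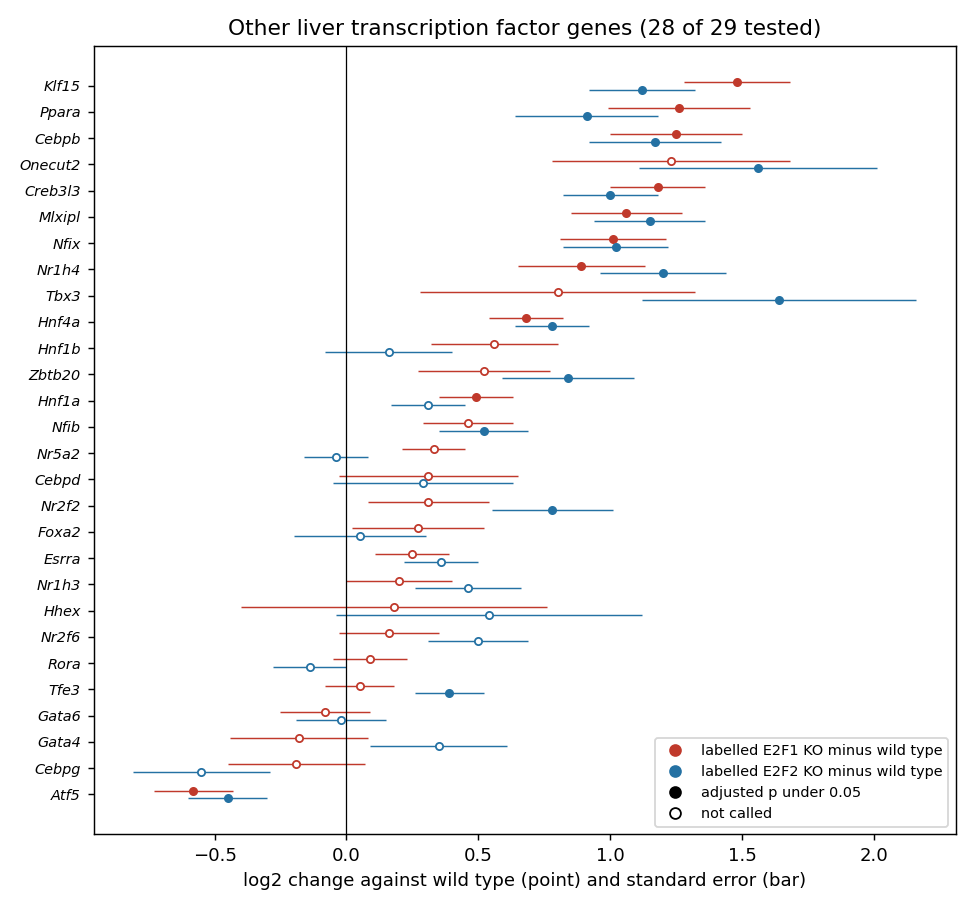
Log2 change (point) and standard error (bar) of 28 of the 29 tested other liver transcription factor genes in E2F1-labelled and in E2F2-labelled minus wild-type livers, in order of the E2F1-labelled change; filled points have a limma adjusted p under 0.05. Klf15 has the highest E2F1-labelled value at 1.48 and Atf5 the lowest at -0.58.

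Genes with the pattern most like each member were listed by Pearson's r over the 12 arrays, as a description, since the 12 points share 3 groups and 4 slides. For Nr1i3 they were Gpld1 (0.984, and 0.97 for deviations from the group means), Upp2 (0.978 and 0.971) and Cpsf4l (0.975 and 0.959). For Nr1i2 they were Cln8 (0.963 and 0.83), Fbxw4 (0.956 and 0.891) and Ppp1r15b (0.956 and 0.882). Onecut1 was most like Map3k1 (0.935 and 0.82), Cxcl14 (0.932 and 0.821) and 9530077C05Rik (0.929 and 0.953), and Foxa3 most like Esf1 (0.97 and 0.953), Gnpat (0.958 and 0.925) and Fastkd5 (0.944 and 0.896). Foxa1 was most like Gapvd1 (0.956 and 0.948), Cebpa like 2310022B05Rik (0.955 and 0.926), Eri3 (0.943 and 0.946) and Ethe1 (0.942 and 0.95), Prox1 like Prl2c1 (0.929 and 0.832) and Asap3 (0.916 and 0.674), and Ahr like Sntg1 (0.887 and 0.86), 4930556M19Rik (0.886 and 0.905) and St3gal4 (0.858 and 0.812). Probes of unnamed regions that ranked among the 3 closest for Foxa1 and Prox1 are left out.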

How the data were processed

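The values are those of 12 one-colour scanner files made with Agilent Feature Extraction (version 10.7.3.1, as the submitters' processing notes state). They hold a background-corrected intensity as deposited, with mm9 positions, per the file headers. The deposited series matrix holds log2 values with a median of 3.838 or 3.839 on every array (r with the scanner log2 signal of at least 0.9981), and the sources used here do not say how it was centred. It served as an alternative.

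Spots marked as controls or outliers were dropped, and repeats of a probe were averaged (55681 probes from 59305 spots). Each log2 intensity was set against its array's 75th percentile. Testing required 3 or more of the 4 arrays of some group to be well above background, and the brightest probe left stood for its gene. Names came from RefSeq accessions for 28026 probes, from symbols for 3418 and from synonyms for 295. Missing values occurred in 99 genes and in none of the members. All 12 arrays entered 1 limma 3.58.1 fit (R 4.3.3) with no covariate (residual degrees of freedom, 9), and p-values were adjusted by Benjamini-Hochberg over 20576 genes, with a call under 0.05. The fit was tested on simulated data.

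Replicate numbers pair arrays by slide, from the file headers, and 10 of 12 same-slide pairs had deviations from group means with r over 0.1 (0.04 to 0.42). The slide was an alternative block. The genes and the 13 lists (of partners, targets and markers of cell types) were chosen with earlier results of these data known. Besides the 8 genes, the text names E2f1, E2f2, Alb, Ttr, up to 6 called genes per list by size of change (for lists of cell type markers, only where a member's result touches them), and the 3 genes most like each member; 2 list genes that the rule would name are not reported here by name. Of the lists, those of stellate cells (5 fell in each labelled group of 14), macrophages (2 rose and 3 fell in E2F1-labelled, 2 rose and 5 fell in E2F2-labelled livers, of 15), lymphocytes (2 rose, then 1 rose and 4 fell, of 14) and neutrophils (5 fell, then 3 fell, of 12) are given here alone. Over all genes 13.2% rose and 7.43% fell in E2F1-labelled livers, and 14.4% rose and 7.59% fell in E2F2-labelled livers. In counts of genes, rose and fell mean called higher and called lower. Number of arrays limits the precision.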

Additional observations from a re-analysis of the deposited data

How the results depend on the processing

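Over 24 alternative settings, 551 of 576 log2 changes of single members kept their direction and their side of the threshold. Nr1i2, Nr1i3 and Onecut1 in E2F1-labelled livers and Prox1 in E2F2-labelled livers kept their call in all 24 (largest limma adjusted p 0.0165, 0.0366, 0.0438 and 0.0477). Foxa3 in E2F2-labelled livers lost its call in 16, among them every removal of an E2F2-labelled replicate, of wild-type replicate 2, 3 or 4 and of E2F1-labelled replicate 1, 2 or 4. Members called in E2F2-labelled against wild-type livers accordingly numbered 1, against 2, without a filter on dim probes, with only the groups compared, with normexp, with the series matrix values, with median centring or with quantile normalization, and 1 to 2 when leaving out 1 replicate; they numbered 3 with the replicate block or array weights. In E2F1-labelled livers they numbered 3 to 4 when leaving out 1 replicate, and 4 with the replicate block. Between the labelled groups they numbered 1, against 0, with the replicate block and with only the groups compared, and 0 to 0 when leaving out 1 replicate. The change of Ahr in E2F1-labelled livers ran from -0.049, without E2F1-labelled replicate 1, to 0.601, and that of Onecut1 in E2F2-labelled livers from -0.569 to 0.03, the last without E2F2-labelled replicate 3. The causes were not tested. The replicate block changed no member call other than those given for Cebpa and Nr1i2. Other liver factors called in E2F2-labelled livers numbered 8 without a filter and 9 with only the groups compared, against 16. Called AHR targets numbered 5 with the block or array weights, against 3, in E2F1-labelled livers, and 1 to 7, against 4, in E2F2-labelled livers. Over all genes, calls in E2F1-labelled livers ran from 2566, without wild-type replicate 2, to 5468, with the replicate block, against 4241 (2646 without E2F1-labelled replicate 3, 2785 without a filter). In E2F2-labelled livers they ran from 2756, without wild-type replicate 2, to 6534, with array weights, against 4524 (2989 with median centring, 2994 without a filter, 6229 with the replicate block). Between the labelled groups they ran from 208, with a filter on all 12 arrays, to 519, with array weights, against 334. With 4 arrays a group, the number of arrays limits what could be called.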

Other observations

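Low wild-type values in replicates 1 and 2 recurred in genes other than the sensors themselves, among them Por, a listed PXR or CAR target. Tbx3 stood at 3.09, 4.07, 3.03 and 2.58 in E2F1-labelled livers, at 3.81, 3.83, 4.60 and 3.86 in E2F2-labelled livers and at 0.97, 1.94, 3.93 and 2.71 in wild-type livers. Por, the electron donor of cytochromes P450, stood at 6.03, 6.86, 6.45 and 6.70 in E2F1-labelled livers, at 5.49, 6.45, 6.36 and 6.15 in E2F2-labelled livers and at 3.64, 3.83, 4.97 and 4.89 in wild-type livers. The oncofetal gene Afp ran the other way, at 1.05, 0.45, -0.17 and 2.59 in E2F1-labelled livers, at -0.29, 0.08, -0.44 and -1.31 in E2F2-labelled livers and at 6.18, 5.82, 2.39 and 4.64 in wild-type livers. These genes were chosen after their values were seen. Hnf4a did not share the split, with 7.65, 7.60, 8.12 and 8.00 in E2F1-labelled livers, 7.99, 7.91, 7.94 and 7.95 in E2F2-labelled livers and 7.21, 7.27, 7.11 and 7.06 in wild-type livers.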
